A study of Mus musculus with 11 samples.

Results

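The genes described here are 10 targets of the transcription factor p53 that act in cell-cycle arrest, stress control and repair: Cdkn1a, Ccng1, Btg2, Gtse1, Plk2, Sesn1, Sesn2, Zmat3, Polk and Rps27l. They were taken by gene name from the count table, where all 10 of 10 were found among 47517 rows, and all 10 passed the filter on low counts. RNA-seq libraries came from forelimb buds of C57BL/6 mouse embryos at E10.5. The 5 control libraries were from Gmnn +/f; Prx-Cre embryos, with 1 floxed and 1 wild-type allele of Gmnn, and the 6 mutant libraries from Gmnn f/f; Prx-Cre embryos, with 2 floxed alleles. Every embryo, controls included, carried Prx-Cre, a transgene that expresses Cre recombinase in limb bud mesenchyme and not in the ectoderm, blood or vessels of the bud, so that a mutant library also holds RNA from cells without recombination. Gmnn encodes Geminin, an inhibitor of the replication licensing factor Cdt1, and the series asks how it bears on Hox gene regulation in limb patterning. Pairs were matched for litter and somite number, and the 4 litters named in the titles are called A to D here. Controls 1 and 2 shared litter A with mutants 1 and 2. Control 3 and mutant 6 were littermates in B, as were control 4 and mutant 5 in C. Litter D gave control 5 together with mutants 3 and 4.

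p53 is a transcription factor that is kept at a low level by the ubiquitin ligase Mdm2 and is stabilised when DNA is damaged or replication is disturbed. It binds a response element made of a pair of similar half-sites and activates genes that halt the cell cycle, repair DNA, restrain growth or kill the cell. Cdkn1a encodes p21, the inhibitor of cyclin-dependent kinases through which p53 imposes arrest. Loss of Geminin is known to permit origins of replication to be licensed again within a cell cycle. In these bulk samples, fewer cells of a type and less RNA per cell cannot be told apart.

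The p53 response element was searched for in the 250 bases before each RefSeq gene start (build GRCm38.p6), because the members are named for their regulation by p53. The element was defined as a pair of adjoining 10-base p53 half-sites, with up to 2 mismatches in the 20 bases and the C and G at the core of each half-site kept. The consensus reads the same on both strands. This definition was chosen after the windows had been seen. RefSeq windows were found for 9 of the 10 genes (14 windows), all except Zmat3, and a match was found before 1 start each of Cdkn1a, Ccng1 and Rps27l. Of all 32851 windows searched, 0.271% held a match. Each of the 3 matches had 1 mismatch, and 0.0578% of all windows held a match with at most 1. The windows of Cdkn1a and Ccng1, the 2 genes with the largest rises, are shown whole and 5′ to 3′ on the gene's strand, with the matched element in capitals, and the Rps27l element is shown alone.
Cdkn1a (chr17:29090729-29090978, plus strand): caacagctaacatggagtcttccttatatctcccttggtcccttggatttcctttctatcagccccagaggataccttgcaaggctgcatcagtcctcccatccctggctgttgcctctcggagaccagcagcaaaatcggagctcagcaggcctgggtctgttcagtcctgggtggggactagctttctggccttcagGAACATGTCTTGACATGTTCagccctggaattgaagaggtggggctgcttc
Ccng1 (chr11:40755287-40755536, minus strand): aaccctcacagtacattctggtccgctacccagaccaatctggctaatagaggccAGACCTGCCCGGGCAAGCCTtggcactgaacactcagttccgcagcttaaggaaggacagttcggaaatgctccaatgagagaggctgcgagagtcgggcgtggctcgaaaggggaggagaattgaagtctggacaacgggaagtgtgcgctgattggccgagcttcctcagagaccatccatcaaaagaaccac
Rps27l (chr9:66946296-66946315, plus strand): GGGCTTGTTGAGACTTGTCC
The Cdkn1a element began 51 bases before the first of its 2 RefSeq starts, the Ccng1 element 195 bases before the only start, and the Rps27l element 117 bases before the second of 2 starts. A match is a description of the letters and was not tested for binding. In the windows of the other members these letters were not found, which says nothing about sites elsewhere in those genes.

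The libraries held 14721181 to 19733288 counted reads. Gmnn, the targeted gene, was at 139.3 to 238.9 CPM (reads scaled to library size with TMM factors) in controls and at 99.5 to 137.7 CPM in mutants, and the groups did not overlap. Its exons were counted as a sum, so intact and recombined alleles are not separated. Some libraries stood apart. Mutant 5 had 8 Xist reads and 4 Y-linked reads, where every other library had at least 939 of one or the other. Mutant 2 had 5.44% of its reads in haemoglobin genes, against 1.34 to 3.30% in the rest. Summed contractile muscle markers were 57.0, 84.4 and 88.0 CPM in controls 1, 2 and 5 and 10.3 to 19.8 CPM in the other 8 libraries. An index of T runs, the mean over reads of the longest T run in the transcripts of each read's gene, was 9.75 to 10.8 in controls and 9.20 to 10.2 in mutants. With this index as a covariate only Ccng1 of the 10 genes passed (edgeR adjusted p 0.0324), and Cdkn1a (log2 0.78, adjusted p 0.363), Sesn2 (0.79, 0.356), Btg2 (0.73, 0.364) and Zmat3 (0.81, 0.236) stayed above 0 without passing.

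The 10 genes fell into 3 groups. Ccng1, Cdkn1a, Sesn2, Btg2 and Zmat3 rose in mutants, and Gtse1, Plk2 and Polk were within 0.07 log2 units of no change. Sesn1 was lower and Rps27l higher by more than that, with adjusted p-values above the threshold of 0.05. Genotype was tested by edgeR's quasi-likelihood method in a model that also held the litter, and p-values were adjusted by Benjamini-Hochberg over 15821 genes. By this test, 5 of 10 members were higher and 0 were lower. Of all genes tested, 0.702% were higher, 1.48% were lower and 2.18% passed in either direction. The median log2 fold change was 0.51 over the members and 0.00 over all genes.

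**Figure D1:**
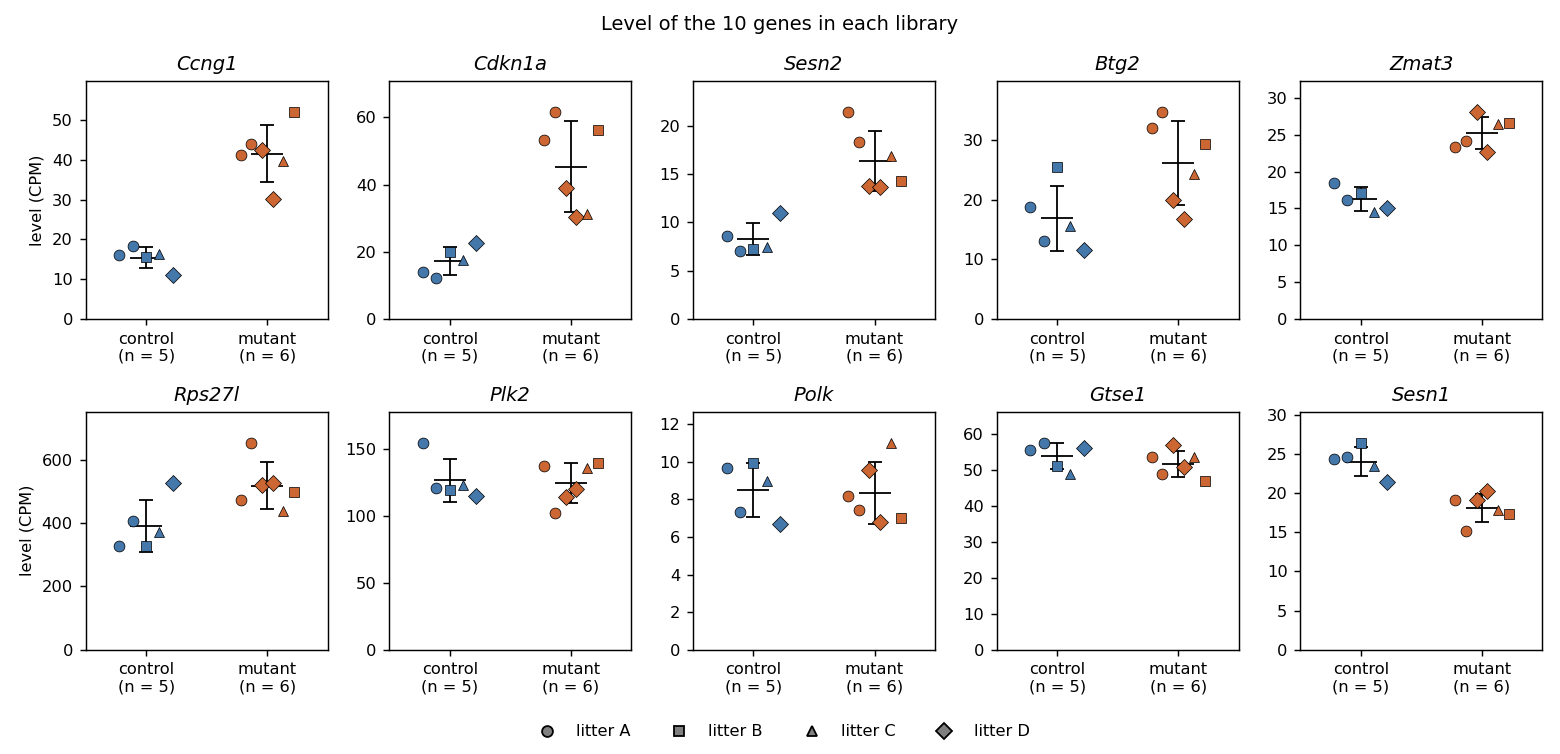
Level of each of the 10 genes in CPM (vertical axis, from 0) in the 5 control (blue) and 6 mutant (orange) libraries, ordered by fold change, with marker shape giving the litter and bars giving the mean and SD. All mutant libraries lie above all controls for Ccng1, Cdkn1a, Sesn2 and Zmat3, and all lie below all controls for Sesn1.

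Among the regulators of the cell cycle, Ccng1 and Cdkn1a had the largest rises. Ccng1 (chromosome 11, 40748552 to 40755311, mm10) encodes cyclin G1, which recruits a phosphatase to Mdm2 and takes part in feedback on p53. It stood at 16.1, 18.3, 15.5, 16.2 and 11 CPM in controls 1 to 5 and at 41.1, 43.9, 42.5, 30.1, 39.8 and 52.0 CPM in mutants 1 to 6. The lowest mutant was well above the highest control. The fold was 2.79 (log2 1.48, SE 0.12, edgeR adjusted p 0.000407), the smallest p of any gene. The log2 difference was 1.30, 1.74, 1.29 and 1.69 in litters A to D, so that the smallest litter difference of Ccng1 exceeded those of Cdkn1a in litters C and D. With any 1 library left out, Ccng1 stayed past the threshold in 11 of 11 fits, with log2 values from 1.41 to 1.54.

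Cdkn1a (chromosome 17, 29090979 to 29100722) was at 13.9, 12.3, 19.8, 17.5 and 22.7 CPM in controls 1 to 5 and at 53.2, 61.6, 39.0, 30.3, 31.3 and 56.4 CPM in mutants 1 to 6. The groups did not overlap, and the mutants of litters A and B were higher than those of C and D. The fold was 2.61 (log2 1.38, SE 0.21, edgeR adjusted p 0.0291). Within litters, the log2 difference was 2.12 in A, 1.5 in B, 0.84 in C and 0.60 in D. The T-run index also differed more between genotypes in A and B than in C and D, and its part in this order was not tested. A test of the genotype by litter interaction gave an unadjusted p of 0.00115 for Cdkn1a and an adjusted p of 0.950 (edgeR, 3 residual degrees of freedom), which did not pass over all genes. With no filter on low counts the Cdkn1a interaction passed (edgeR adjusted p 2.84e-05), but the share of all genes passing there was not counted. Genotype calls over all genes also went from 345 to 1566 without the filter. That value therefore does not show that the rise differs between litters. With the filter, the interaction gave 0 calls (0.00%) for all genes together, and 605 at an unadjusted p under 0.05. In the GENCODE M21 annotation, 7.68% of Cdkn1a exon bases also lie in a clone-named gene. Reads were counted on GENCODE M9, where the overlap was not examined. If it is also present there, its reads could not be assigned without strand.

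Btg2 (chromosome 1, 134075170 to 134079120) encodes an antiproliferative protein that recruits the Ccr4-Not deadenylase to messenger RNA and is also an immediate early gene. Its levels were 18.7, 13.0, 25.4, 15.6 and 11.5 CPM in controls 1 to 5 and 32.1, 34.7, 19.9, 16.8, 24.3 and 29.3 CPM in mutants 1 to 6. Here the groups overlapped: control 3 lay above 3 of the mutants, and the rise was seen against controls of the same litter. The fold was 1.66 (log2 0.73, SE 0.14, edgeR adjusted p 0.0406), with litter differences of 1.09, 0.21, 0.64 and 0.67 in A to D. Without litter as a block the value was 0.64 and did not pass (edgeR adjusted p 0.118). Of 12 other immediate early genes tested, 0 passed in either direction, which is near the 2.18% of all genes that passed. Their median log2 fold change was 0.11, with 7 of 12 above 0. Their summed level was 137.8 to 182.2 CPM in controls and 109.8 to 170.1 CPM in mutants. Much of that sum was Ier2, with a mean of 81.6 CPM in controls and 60.3 CPM in mutants, so it does not describe the other genes. In a list of this size 0 calls do not show that these genes were unchanged.

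Zmat3 (chromosome 3, 32334792 to 32366014) encodes a zinc finger protein that binds RNA and affects splicing and transcript stability. It was at 18.5, 16.2, 17.1, 14.5 and 15.0 CPM in controls 1 to 5 and at 23.4, 24.1, 28.1, 22.7, 26.5 and 26.6 CPM in mutants 1 to 6. The groups did not overlap. The fold was 1.56 (log2 0.64, SE 0.10, edgeR adjusted p 0.0291). Differences were 0.45, 0.63, 0.87 and 0.75 in litters A to D, a narrower range than for Cdkn1a. Litter A, which had the largest difference for Cdkn1a, had the smallest for Zmat3.

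Gtse1 and Plk2 did not pass. Gtse1 (chromosome 15, 85859707 to 85876572) encodes a microtubule-binding protein of G2 and mitosis that moves p53 out of the nucleus. It ranged from 49.0 to 57.6 CPM in controls (median 55.6) and from 47.1 to 56.9 CPM in mutants (median 52.3). The log2 fold change was -0.07 (95% interval -0.21 to 0.07, edgeR adjusted p 0.641), which is the tightest interval of the 10. Of 18 fixed genes of G2 and mitosis, 0 rose and 2 fell, Cdc25c and Kif20a, against 0.702% and 1.48% of all genes. Cdc25c, a phosphatase that activates Cdk1, averaged 86.4 ± 3.71 CPM over the controls and 70.0 ± 4.30 CPM over the mutants (SD, n = 5 and 6; log2 -0.31, edgeR adjusted p 0.0406). Kif20a, a kinesin of cytokinesis, was at 250.2 ± 22.5 and 168.4 ± 29.2 CPM (SD, n = 5 and 6; log2 -0.57, edgeR adjusted p 0.0406). Of their exon bases in M21, 12.7% for Cdc25c and 29.3% for Kif20a also lie in another gene.

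Plk2 (chromosome 13, 110395044 to 110400844) encodes a polo-like kinase of the S phase and of centriole duplication. Its level was 154.4 CPM in control 1 and 114.9 to 123.3 CPM in the other controls, and 102.3 to 139.2 CPM in mutants (median 127.6). Control and mutant means differed by less than the spread within either group, at 126.5 ± 15.9 CPM (SD, n = 5) and 124.6 ± 15.0 CPM (SD, n = 6). The log2 fold change was 0.00 (95% interval -0.20 to 0.20, edgeR adjusted p 0.997), and litter differences ran from -0.20 in A to 0.22 in B.

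The sestrins, which restrain the growth kinase mTORC1 and limit oxidative damage, had changes of opposite sign. Sesn2 (chromosome 4, 132492032 to 132510501) was at 8.56, 7.05, 7.25, 7.44 and 11 CPM in controls 1 to 5 and at 21.4, 18.3, 13.7, 13.6, 16.9 and 14.3 CPM in mutants 1 to 6. All mutants exceeded all controls, although control 5 came close to both mutants of its own litter D. The fold was 1.98 (log2 0.98, SE 0.16, edgeR adjusted p 0.0291). Litter differences were 1.34, 0.97, 1.17 and 0.31, with an unadjusted interaction p of 0.0376 (edgeR adjusted p 0.950).

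Sesn1 (chromosome 10, 41810574 to 41908424) was at 24.3, 24.6, 26.4, 23.4 and 21.4 CPM in controls 1 to 5 and at 19.1, 15.1, 19.1, 20.2, 17.8 and 17.3 CPM in mutants 1 to 6. Every mutant lay below every control, an arrangement shared by 1.30% of all genes, but the edgeR test did not pass (log2 -0.41, SE 0.10, adjusted p 0.0546). It passed without control 5 (adjusted p 0.0278), in DESeq2 (adjusted p 0.00958) and in limma-voom (adjusted p 0.0484). When the T-run index entered the model it was at -0.16 (edgeR adjusted p 0.709). Sesn1 was the lowest ranked of the 10 genes in all 4 litters, at -0.52, -0.61, -0.39 and -0.12. The difference between the changes of Sesn1 and Sesn2 was -1.39 (SE 0.24, exact permutation p 0.0139, adjusted p 0.0272 over 45 pairs). Sesn3, the relative that is under FoxO rather than p53 control, had a log2 fold change of -0.15 (edgeR adjusted p 0.405).

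Sesn2 is also a target of Atf4 and of Nrf2, the transcription factors of the amino acid and oxidative stress responses. Of 10 Atf4 stress genes tested 0 passed, with a median log2 fold change of 0.08, and of 6 Nrf2 targets 0 passed, with a median of 0.10. Of 12 genes of mTORC1 and its regulators tested, 0 passed, with a median of -0.17. Over all genes 2.18% passed, so 0 calls in lists of this size do not show that these genes were unchanged.

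Polk and Rps27l complete the set. Polk (chromosome 13, 96480689 to 96542485) encodes a translesion DNA polymerase that copies past bulky lesions. It was low, at 6.66 to 9.92 CPM in controls (median 8.95) and 6.78 to 11 CPM in mutants (median 7.78), and its log2 fold change was -0.02 (95% interval -0.33 to 0.29, edgeR adjusted p 0.965), the widest interval among the 3 genes near no change. Litter differences had both signs, -0.11, -0.50, 0.29 and 0.27. The related polymerases Polh, Poli, Polq and Rev1 did not pass either, at -0.38, -0.19, -0.01 and -0.19 on the log2 scale.

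Rps27l (chromosome 9, 66946086 to 66949516) encodes a ribosomal protein close to Rps27 that affects p53 stability. It was at 328.2, 407.5, 326.2, 371.6 and 525.4 CPM in controls 1 to 5 and at 474.1, 653.0, 520.5, 525.6, 437.7 and 497.4 CPM in mutants 1 to 6. Control 5 was as high as its 2 mutant littermates, so the log2 difference was -0.01 in litter D and 0.61, 0.61 and 0.24 in A to C. The log2 fold change was 0.38 (SE 0.12, edgeR adjusted p 0.0919). Without control 5 it was 0.52 and passed (edgeR adjusted p 0.0320), and DESeq2 also called it on all libraries (adjusted p 0.0213). It was at 0.28 without mutant 2 (edgeR adjusted p 0.133), at 0.25 without litter A (adjusted p 0.296) and at -0.072 when the T-run index entered the model (adjusted p 0.70). Of the 50-base stretches of Rps27l transcripts in M21, 11.2% also occur in transcripts of other genes, and reads from them are uncertain. Rps27 was at 11.1 CPM in controls and 13.9 CPM in mutants, with 25% of its own stretches shared with a near-identical gene. Reads of such stretches can be lost to the mapping quality filter, and the part of this in the level of Rps27 was not tested, so that level is uncertain.

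**Figure D2:**
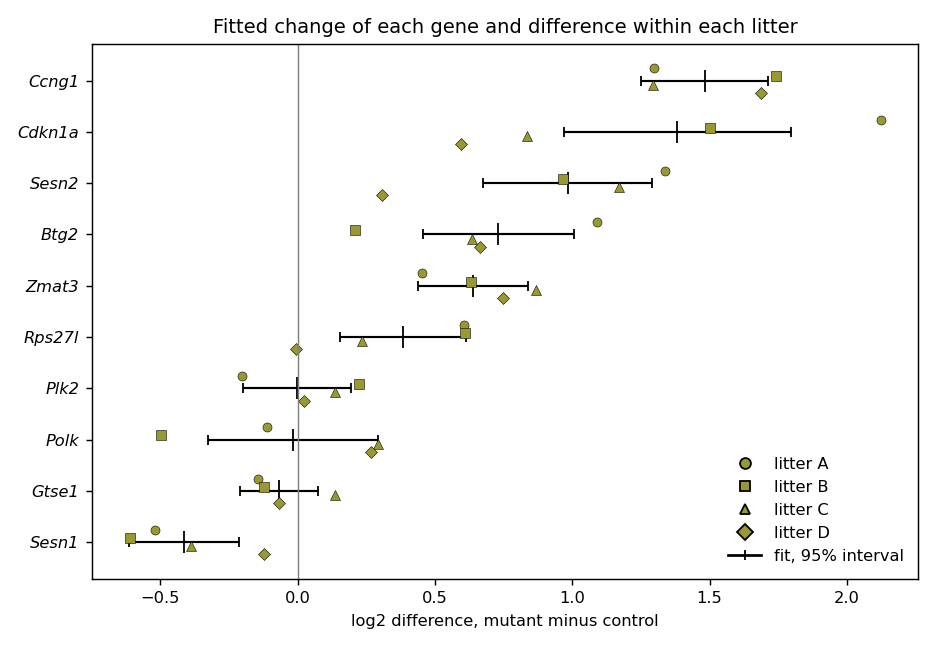
Log2 difference of mutant minus control for each gene (horizontal axis), with the fitted value and its 95% interval in black and the difference of mean log2 CPM within each litter as a marker. The litter differences of Ccng1 lie between 1.29 and 1.74, those of Cdkn1a between 0.60 and 2.12.

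Each member was also tested by exact two-sided permutation of genotype labels within litters, in 72 arrangements whose smallest possible p is 0.0139. Ccng1, Cdkn1a, Sesn2, Btg2, Zmat3 and Sesn1 each reached that p, and 7.70% of all genes did. Rps27l had an exact permutation p of 0.0556, Gtse1 0.278, Polk 0.958 and Plk2 0.972. Direction was the same in all 4 litters for those 6 genes, 5 of them higher and Sesn1 lower. Among all genes, 12.6% were higher and 13.5% lower in each of the 4 litters. Ccng1, Cdkn1a, Sesn2 and Zmat3 had every mutant above every control, as 1.29% of all genes did.

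The order of the rises was Ccng1, Cdkn1a, Sesn2, Btg2, Zmat3, Rps27l, Plk2, Polk, Gtse1 and Sesn1. Neighbours in this order were not shown to differ: none of the 9 neighbouring pairs passed when the difference of 2 genes' log2 CPM was tested by exact permutation within litters and adjusted over 45 pairs. The change of Cdkn1a minus that of Ccng1 was -0.09 (95% interval -0.89 to 0.70), and that of Cdkn1a minus Sesn2 0.40 (-0.07 to 0.88). The neighbours Gtse1 and Sesn1 came nearest to passing, at 0.34 (95% interval 0.12 to 0.57, exact permutation p 0.0417, adjusted p 0.0647). Over larger steps 23 of 45 pairs passed, each at an adjusted p of 0.0272. Ccng1 rose by 0.84 more than Zmat3 (95% interval 0.55 to 1.13) and by 1.09 more than Rps27l (0.62 to 1.57), and Gtse1 minus Zmat3 was -0.71. Cdkn1a was not shown to differ from Zmat3 (0.75, 95% interval -0.06 to 1.55, exact permutation adjusted p 0.208), and the interval spans 0. The top gene was Ccng1 in litters B, C and D and Cdkn1a in litter A, where Ccng1 came after Cdkn1a and Sesn2. Cdkn1a came after Ccng1 in B, and after Ccng1, Sesn2 and Zmat3 in C and Ccng1, Zmat3 and Btg2 in D. Without any 1 of 10 libraries (all but control 5) the smallest p rose to 0.0278 or 0.0417 and 0 of 45 pairs passed. With so few arrangements a pair could pass after adjustment only if most pairs reached that smallest p. These 0 counts therefore do not show whether the differences rest on single libraries.

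**Figure D3:**
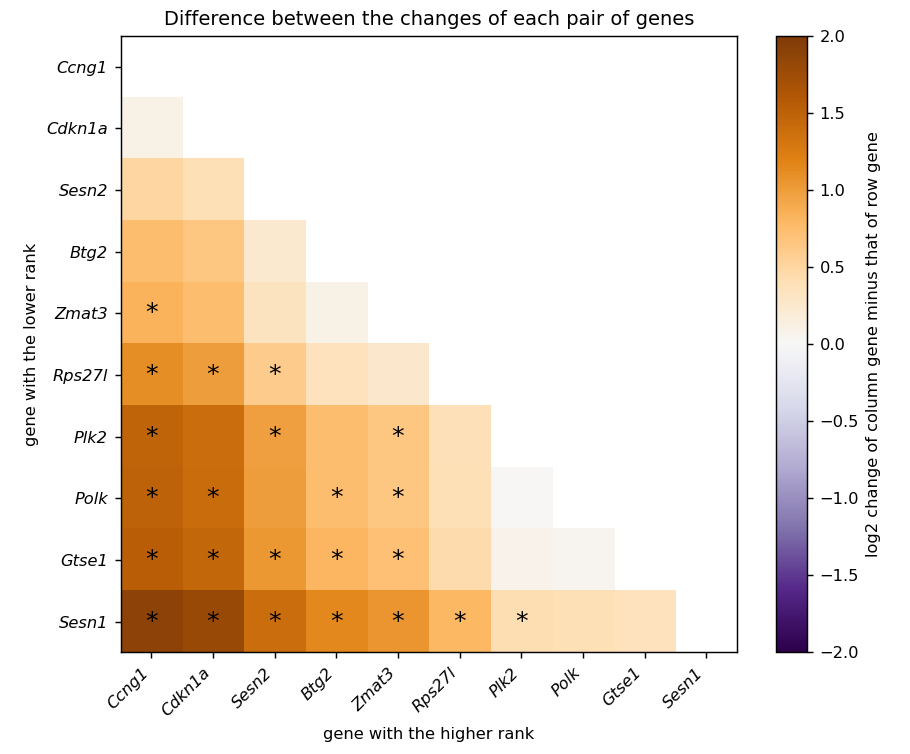
Difference of log2 fold change between each pair of the 10 genes, column gene minus row gene, on a colour scale from -2 to 2, with genes ordered by fold change and a star on the 23 of 45 pairs with an adjusted exact permutation p of 0.0272. Neighbours next to the diagonal carry no star, and Sesn1 differs from 7 of the other 9 genes.

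Compared per exon length, the members differed widely in level. Mean RPKM (reads per kilobase of exon, scaled to library size as CPM) in controls was 480.1 for Rps27l, 45.1 for Plk2, 19.8 for Gtse1, 7.75 for Cdkn1a, 7.22 for Sesn1, 6.14 for Btg2, 4.39 for Ccng1, 2.38 for Sesn2, 1.98 for Polk and 1.42 for Zmat3. In mutants Cdkn1a stood at 20.4 ± 6.07 RPKM (SD, n = 6), close to Gtse1 at 19.1 ± 1.34, and Ccng1 at 11.8 ± 2.02 RPKM lay above Sesn1 at 5.45 ± 0.537. The 3 members of highest level per length in controls were not among the 5 that rose.

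Among the other p53 targets, 32 had a control library above the level of the low-count filter. Of these, 5 rose (0.702% of all genes did) and 0 fell (1.48% did), with a median log2 fold change of 0.10. A further 2, Trp53cor1 and Ano3, lay below that level in every control and entered the test only through the mutant libraries, where they are high, so their folds and p-values are not given. The list was written with earlier results of these data known, and Ano3 is in it on those results alone. Eda2r, a receptor of the tumour necrosis factor family, rose 2.08 on the log2 scale (SE 0.23, edgeR adjusted p 0.00550), with 1.41 ± 0.457 CPM in controls and 6.00 ± 1.01 CPM in mutants (SD, n = 5 and 6). The long non-coding RNA Trp53cor1, which lies upstream of Cdkn1a, was at 0.0701 to 0.382 CPM in controls and 0.535 to 2.70 CPM in mutants, and 44.1% of its exon bases lie in other genes in M21. Ano3 was at 0.0701 to 0.447 CPM in controls and 0.535 to 4.30 CPM in mutants. Trp53inp1, a regulator of autophagy and p53 activity, had 0.86 and Dcxr, a dicarbonyl and xylulose reductase, 0.83 on the log2 scale, both at an edgeR adjusted p of 0.0406. Ei24, an endoplasmic reticulum protein, had 0.38 (edgeR adjusted p 0.0468), with 6.66% of its exon bases in another gene. Phlda3, an inhibitor of Akt, was the seventh in order of p, outside the rule of 6 genes per list and named after its values were seen, at 0.85 (edgeR adjusted p 0.0468).

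Among 11 genes of p53 itself, its relatives and its regulators, 0 passed, which is near the 2.18% of all genes that did. Trp53 averaged 620.5 ± 31.6 CPM over the controls and 587.4 ± 65.9 CPM over the mutants (SD, n = 5 and 6), which gave -0.10 on the log2 scale (SE 0.07) at an edgeR adjusted p of 0.418. Mdm2, itself a p53 target, had 0.09 (edgeR adjusted p 0.557). Transcript levels do not measure the p53 protein.

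The nearest family relatives of the members gave 0 rises and 1 fall among 16 genes tested, against 0.702% and 1.48% over all genes. Their median log2 fold change was -0.16. The one that fell was Cdkn1b, which encodes p27, a second inhibitor of cyclin-dependent kinases. It was at 15.6 to 47.4 CPM in controls and 10.3 to 19.5 CPM in mutants (log2 -1.12, SE 0.21, edgeR adjusted p 0.0390), opposite in sign to Cdkn1a. Cdkn1c, the third gene of that family, had 0.05 (edgeR adjusted p 0.773). Ccng2, the relative of Ccng1, had -0.49 (edgeR adjusted p 0.0671), and Btg1, a relative of Btg2, -0.19 (edgeR adjusted p 0.316). The differences between members and these relatives were not tested. The longest T run in transcripts was 23 bases for Cdkn1b, 26 for Cdkn1a and 18 for both Btg2 and Zmat3, and the part of the T-run index in their changes was not tested beyond the covariate fit above.

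**Figure D4:**
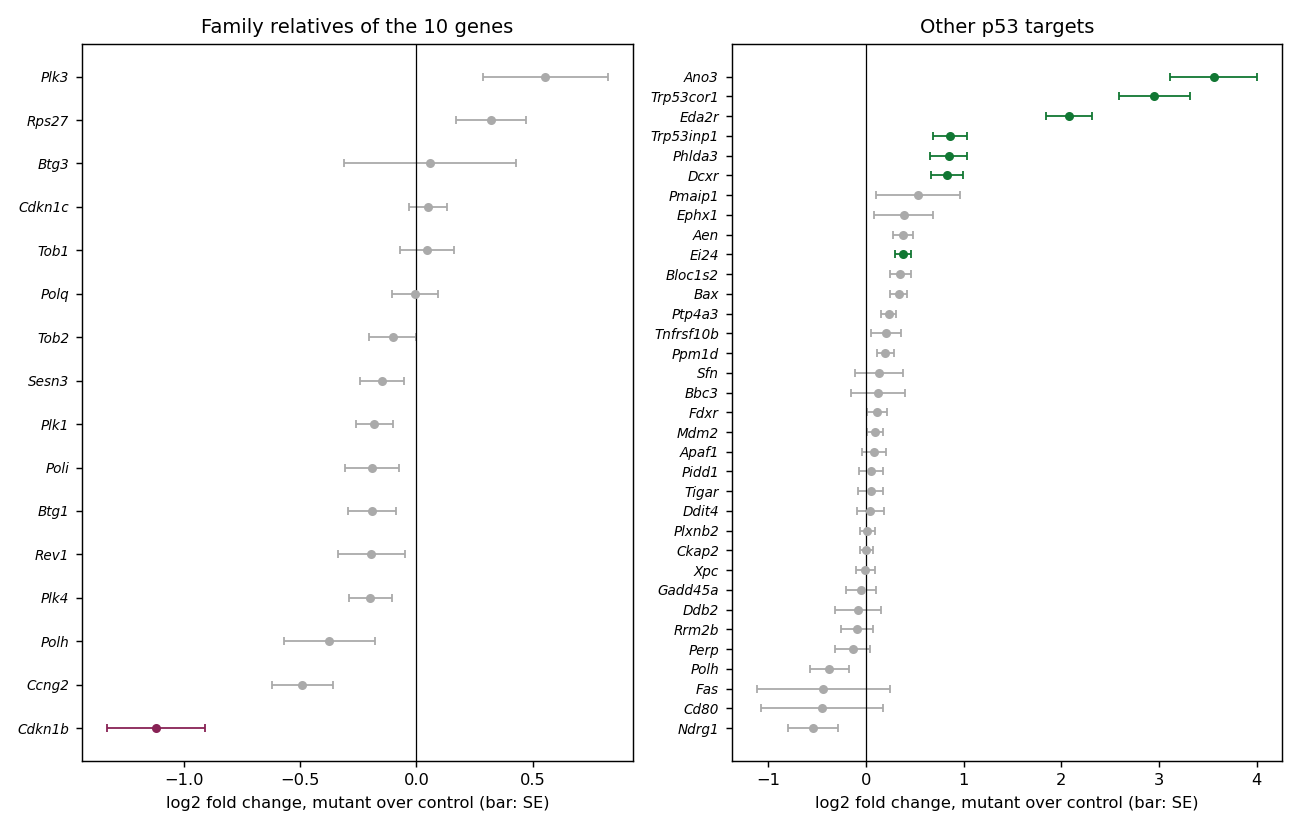
Log2 fold change of mutant over control with its SE (horizontal axis) for the 16 family relatives of the 10 genes and for the 34 other p53 targets tested. Green marks genes that rose and purple those that fell at an adjusted p under 0.05 in edgeR, and grey all others. There were 0 rises and 1 fall (Cdkn1b) among the relatives. Among the 32 other targets with a control library above the level of the low-count filter there were 5 rises and 0 falls. Trp53cor1 and Ano3 are drawn in green too, but entered the test through the mutant libraries alone, so their points are not a result.

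Of 16 cyclins, cyclin-dependent kinases and genes of the Rb pathway, on which p21 acts, 2 rose and 1 fell. Over all genes these shares were 0.702% and 1.48%. Ccne1, a cyclin of the entry to S phase, rose, with 73.4 ± 16.4 CPM in controls and 109.5 ± 6.76 CPM in mutants (SD, n = 5 and 6), with every mutant above every control (log2 0.56, edgeR adjusted p 0.0353). Its relative Ccne2 fell from 70.6 ± 7.80 to 50.1 ± 7.47 CPM (SD, n = 5 and 6; log2 -0.47, edgeR adjusted p 0.0291). Ccnd1, a G1 cyclin, rose by 0.39 on the log2 scale (edgeR adjusted p 0.0495). Of their exon bases in M21, 17.4% for Ccne2 and 23.4% for Ccnd1 lie also in another gene.

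By the rule fixed for likeness, the genes whose log2 CPM over the 11 libraries was closest to that of Cdkn1a were Nxn (Pearson r 0.981), Rcc2 (0.968) and Ddit4l (0.966). For Ccng1 they were Trp53cor1 (0.968), Cd302 (0.963) and Ano3 (0.949). These were the highest of 12088 genes compared. The libraries share the contrast of genotype and their litters, so the values describe likeness only. Trp53cor1 and Ano3 lay below the level of the low-count filter in every control and entered through the mutant libraries. Their likeness to a gene that rose is thus in part set by that entry. The log2 fold change was 0.47 for Nxn, 1.06 for Ddit4l, 0.56 for Cd302 and 0.17 for Rcc2. Choosing genes by likeness to a gene that rose, in the same libraries, favours genes that rise. These values are therefore a description, and no p-values are given for them.

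Markers of the tissue were present in all libraries. The 6 limb mesenchyme genes summed to 537.4 to 737.1 CPM in controls and 535.9 to 627.4 CPM in mutants, and 0 of 6 passed. Of macrophage markers 0 of 10 passed (summed CPM 3.01 to 33.3 in controls, 10.7 to 48.7 in mutants), and 9 of 10 had a fold change above 0. For red blood cells 0 of 9 passed (13033.8 to 33459.5 and 16314.4 to 56152.0 CPM). For endothelium 0 of 6 passed (136.3 to 209.8 and 111.4 to 186.6 CPM), and for surface ectoderm 0 of 7 (160.1 to 293.6 and 175.0 to 300.5 CPM). For muscle precursors 0 of 6 passed (50.2 to 82.7 and 48.9 to 88.7 CPM), and for neural crest 0 of 4 tested (8.39 to 15.1 and 6.06 to 11.8 CPM). Contractile muscle had 3 of 7 lower (10.8 to 88.0 and 10.3 to 19.8 CPM). Median log2 fold changes were 0.83 for macrophages, 0.35 for red blood cells, 0.02 for endothelium and -0.19 for surface ectoderm. They were -0.42 for muscle precursors, -0.45 for neural crest, -1.76 for contractile muscle and -0.04 for limb mesenchyme. Over all genes 2.18% passed, so 0 calls in such short lists do not show an unchanged mix of cells. The part of other cell types in the changes of the 10 genes was not tested. The rises of Ccng1, Cdkn1a, Sesn2, Btg2 and Zmat3 had the same direction without any 1 library, but only Ccng1 kept its call in all 11 such fits. Zmat3 and Cdkn1a passed in 3 of 11, Sesn2 and Btg2 in 2 of 11. The number of members past the threshold was 7 without control 5 (6 higher, and Sesn1 lower) and 5 without mutant 2. It was 2 without control 1 or mutant 4, and 1 without each of controls 2, 3 and 4 and mutants 1, 3, 5 and 6.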

How the data were processed

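Whole-number read counts were deposited, summed by gene name with featureCounts 1.4.6-p4 on mm10 and GENCODE M9 at a mapping quality of at least 10, per the file headers. STAR 2.5.4b is named in the submitters' processing notes. The header command sets no option for strand, and lists 12 alignment files, where the table used here has 11 sample columns. The Length column deposited beside them gives exon bases and served for RPKM.

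No library had fewer than 14721181 counted reads, and the spread between libraries was larger than counting noise. Genes were kept by filterByExpr (15821 genes) and tested with edgeR 4.0.16 (TMM, quasi-likelihood, litter block, adjusted p under 0.05) in R 4.3.3, with limma 3.58.1 and DESeq2 1.42.0 as alternatives. SE come from the F statistic, 95% intervals of fold changes are 1.96 SE, and log2 CPM used a prior count of 2. Intervals of pair differences used 6 residual degrees of freedom. Nothing says whether embryos of 1 litter were processed separately, so p-values measure the spread between these libraries. Litters pair the samples, per the titles and the design text. As a check, deviations from group means correlated with a median of 0.130 over the 8 pairs of a control and a mutant from 1 litter and -0.0199 over the 22 such pairs from different litters. No 2 libraries of a group agreed within sampling noise (over 25 pairs, chi-square divided by its degrees of freedom was at least 6.82).

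The 10 genes, the lists and the rule for naming genes were chosen with earlier results of these data known. The rule names Gmnn, the members, Trp53, the members' relatives, up to 6 called genes per list and the 3 genes most like Cdkn1a and Ccng1, among genes of at least 1 CPM. Overlaps and T runs are from GENCODE M21, promoters from RefSeq. Alternatives were other scalings, filters and tools, no block, removal of abundant genes, a T-run covariate, and each library or litter left out. Leaving Ano3, or all genes below the filter level in every control, out of a list was added after seeing the data.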

Additional observations from a re-analysis of the deposited data

Results flagged for a closer look

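Plk2 in control 1 was the one value, among 44 checks of the highest and lowest library of each group for 11 genes (the members and Gmnn), that lay far from the rest of its group. It stood at 154.4 CPM, where the other controls were at 114.9 to 123.3 CPM. Chance flags at most about 5% of such checks, or 2.2 of 44. Without control 1 the log2 fold change of Plk2 was 0.08, and it did not pass (edgeR adjusted p 0.667).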

How the results depend on the processing

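Counts of calls depended on the settings more than directions did. Of all genes, 345 passed as reported, 390 with RLE and 360 with upper-quartile scaling, 550 where genes needed 1 CPM in 5 or more libraries, 1566 with no filter, 1194 in DESeq2, 439 in limma-voom, 16 without litter as a replicate block and 3 with the T-run covariate. Upper-quartile scaling put 43.1% of calls higher, against 32.2%. Of the members, 5 passed as reported, 4 without the block and 1 with the covariate, all of them higher. With no filter or in DESeq2 7 passed, 6 of them higher. With the 1 CPM filter or in limma-voom 6 passed, 5 of them higher. The member that was lower in these 4 settings was Sesn1. Of the other p53 targets, Trp53cor1 and Ano3 included, 7 passed in the design as reported (6 without Ano3, 5 without both), 10 with no filter, 8 in DESeq2, 3 without the block and 0 with the covariate. Without each library in turn, 1 to 850 genes, 1 to 7 members and 0 to 9 other targets passed. In the 10 of these fits where pairs were tested, 0 pairs passed. Without litters A, B, C and D, 9, 3, 1 and 148 genes passed, 1, 1, 1 and 4 members, and 0, 1, 0 and 5 other targets; without B or C, 0 pairs passed. Without control 5, litter A or litter D the smallest exact permutation p is 0.0833, so no member or pair could pass. In the other fits without a library or litter it is 0.0278 or 0.0417. There a pair could pass only if most pairs reached it, so the 0 counts of pairs follow largely from the few arrangements. Under the other settings 23 pairs passed, except for 28 without the block and 30 with the T-run covariate. The index differs between genotypes and does not move with permuted labels, so permutation in that fit is not comparable. It put 9 members at or under 0.05, where edgeR called 1 with the covariate. Its 30 pairs therefore do not show that the order holds with the covariate. The genotype by litter interaction passed for 1 member, Cdkn1a, with no filter (edgeR adjusted p 2.84e-05), and cannot be fitted without the block. The share of all genes with an interaction was not counted without the filter, so this call does not show a difference between litters.

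Signs turned for Plk2, Polk, Gtse1 and Rps27l. Plk2 was at 0.036 with upper-quartile scaling, 0.00024 with the 1 CPM filter, 0.26 with the covariate, 0.12 without litter A and -0.051 to 0.081 without each library. Polk was at 0.022 with upper-quartile scaling, 0.37 with the covariate, 0.048 and 0.10 without litters A and B, and -0.11 to 0.10 without each library. With the covariate Gtse1 was at 0.020 and Rps27l at -0.072. The cause was not tested.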
